A study of Rattus norvegicus with 3 samples.

Results

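The genes described here are the matrix proteases and their inhibitors in rat soleus, a muscle of mostly slow fibres that keeps posture in the hind limb. They were taken by symbol: every gene of the array named Mmp, Timp, Adam or Adamts with a number or Serpine, together with Plat, Plau and Plaur. This gave 56 of the 14217 named genes, with 81 probe sets between them. All 56 carry the same symbol in RefSeq. Of these genes 37 reached the signal floor on at least 1 array, which is 66.1%, against 79.0% of all named genes. The floor is a log2 signal of 6.01, the 40th percentile of all deposited values. On all 3 arrays 30 genes reached it, and 7 did so on only 1 or 2, so that the differences of these 7 depend on the floor.

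White Sprague-Dawley rats, 8 weeks of age in every group, gave the tissue. The control group (fed normally, time entry 7 days) was compared with rats under hind limb suspension, held by the tail at about 30 degrees, for 7 days or for 14 days. RNA of 4 rats was pooled for each group and run on 1 Affymetrix array, so no value has a replicate, no test was possible, and the spread between rats is unknown. No 14-day control was analysed here, so age and time in the cage cannot be told apart from the second week of suspension.

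The extracellular matrix of muscle is built and cleared by several families of enzymes. Matrix metalloproteinases (MMPs) are zinc enzymes that cut collagens and other matrix proteins, and tissue inhibitors of metalloproteinases (TIMPs) block them. ADAMs are mostly membrane-bound enzymes that shed growth factors and receptors from the cell surface, and ADAMTS enzymes are secreted relatives that cut proteoglycans and procollagens. The plasminogen activators Plat and Plau turn plasminogen into plasmin, Plaur is the cell-surface receptor of Plau, and the serpins of the E family inhibit the activators.

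On the arrays, the genes that stood furthest from control were a few secreted ADAMTS enzymes, Mmp23, Mmp2 and Adam22 on the higher side and Plaur, Timp1 and, at 14 days, Adam10 on the lower side. Adamts5 and Adamts15 were 2.21-fold and 2.25-fold above control at 7 days and 1.66-fold and 1.85-fold above it at 14 days. Plaur was at least 2.70-fold below control at 7 days and 1.55-fold below at 14 days, and Timp1 1.74-fold and 1.42-fold below. The collagenases Mmp8 and Mmp13, the stromelysins and the gelatinase Mmp9 lay under the floor on all 3 arrays.

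The promoters of Plaur and Timp1 are shown because these genes lay below control on both suspended arrays. The bases are the 250 before the start of transcription in RefSeq, build GRCr8, for Plaur at chr1:89181113-89181362 on the plus strand and for Timp1 at chrX:3771123-3771372 on the minus strand. Capitals mark 3 motifs searched on both strands: the AP-1 motif TGANTCA, the GC box GGGCGG and the E-box CAGCTG.
Plaur: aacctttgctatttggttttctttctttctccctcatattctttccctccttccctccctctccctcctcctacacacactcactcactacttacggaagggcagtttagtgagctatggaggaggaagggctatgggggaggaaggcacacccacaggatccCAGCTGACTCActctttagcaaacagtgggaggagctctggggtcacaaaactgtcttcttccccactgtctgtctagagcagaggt
Timp1: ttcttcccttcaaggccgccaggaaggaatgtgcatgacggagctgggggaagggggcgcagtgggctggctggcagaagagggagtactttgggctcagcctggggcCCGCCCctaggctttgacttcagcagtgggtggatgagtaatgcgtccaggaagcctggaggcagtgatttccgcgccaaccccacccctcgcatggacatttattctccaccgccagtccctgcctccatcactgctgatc
The Plaur stretch holds an E-box that begins 87 bases before the start and an AP-1 motif, TGACTCA, that begins 83 bases before it and overlaps the E-box. The Timp1 stretch holds a GC box on the reverse strand, 142 bases before the start, and no exact match to the other motifs in this window. Its letters tgagtaa, close to the AP-1 motif, were not counted.

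RefSeq promoter windows of 300 bases, which reach 50 bases past the start, were at hand for 24 of the 37 measured genes. Adamts5, Adamts8, Adamts15, Mmp2, Mmp14, Plat and Adam23 were among those without one. The AP-1 motif was found in 3 of the 24 windows (Plaur, Adam19 and Mmp12), the GC box in 16 and the E-box in 7. Over all 33469 windows of that length the shares were 7.33%, 33.1% and 15.1%. Those windows were not limited to measured genes or to a single window for each gene, so the sets compared are unlike. The windows of the 24 genes were richer in G and C, with a median of 65.0% against 51.7% over all windows. A match describes letters only and shows no binding. The transcription factor gene Fos, whose product is part of AP-1, had log2 signals of 12.08 in control, 10.74 at 7 days and 9.83 at 14 days. Jun, its usual partner, had 11.86, 11.99 and 12.06. Any link of Fos or Jun to the genes with an AP-1 motif was not tested.

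The arrays were of like overall signal, with 59.1% to 61.6% of probe sets at or above the floor. The slow fibre genes that define soleus were present, with Myh7 between 15.67 and 15.84 on every array. A technical error came from 2292 genes whose 2 brightest probe sets both reached the floor on every array. It was how far the pair parted in its log2 difference, as an SD per probe set. Against control it was 0.49 at 7 days and 0.48 at 14 days for mean log2 signals under 8, 0.34 and 0.35 for signals of 8 to 10, and 0.27 and 0.28 for signals of 10 and above. Between the suspended arrays it was 0.38, 0.28 and 0.20. It holds no variation between rats or pools. Folds use signals raised to the floor, and a fold with 1 side under the floor is a bound, written "at least". Genes were counted as higher or lower when at least 1.5-fold apart.

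**Figure D1:**
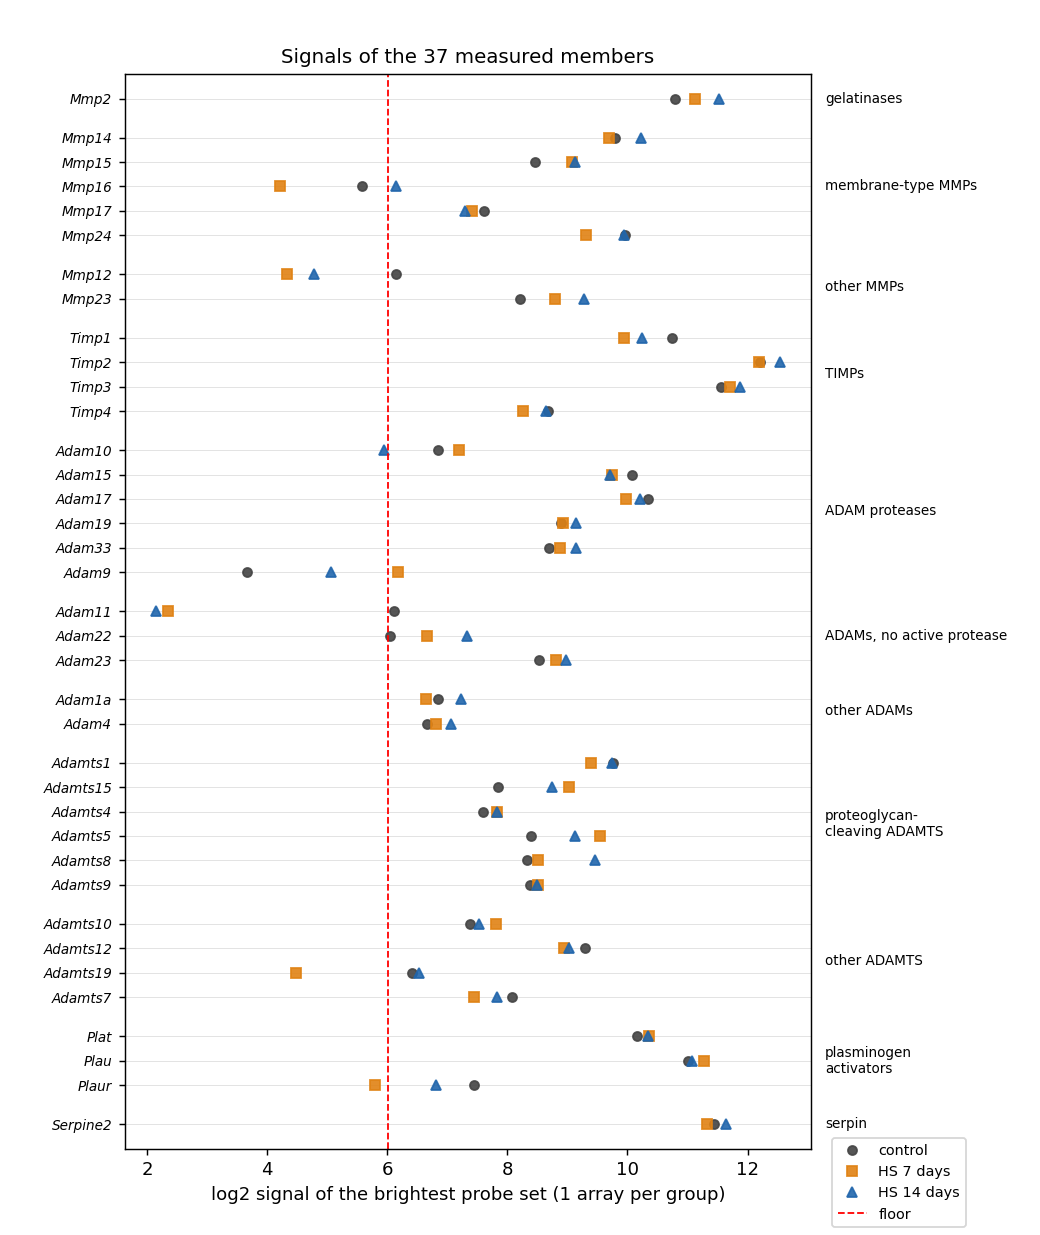
Log2 signal of the brightest probe set (horizontal axis) of the 37 measured genes, ordered by role, with 1 point for each array: control, hind limb suspension (HS) for 7 days and for 14 days. The dashed line is the floor at 6.01. Adamts5 and Adamts15 have their control point on the left of both suspended points, and Timp1 and Plaur have it on the right.

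At 7 days, 5 of these 37 stood at least 1.5-fold above control, where 9.04% of the 11229 measured genes of the array were. Another 4 were as far below it, where 9.15% of measured genes were. The higher genes were Adamts15, Adamts5, Adam22, Mmp15 and Mmp23, and the lower genes Plaur, Timp1, Mmp24 and Adamts7. The 7-day split was 5 higher and 2 lower with arrays centred on their medians, and 3 and 4 with quantile normalization. At 14 days, 7 were higher, against 11.7% of measured genes, namely Adam22, Adamts8, Mmp23, Adamts15, Mmp2, Adamts5 and Mmp15. Only Adam10 and Plaur were lower, against 9.25% of measured genes. The 37 genes as a group were not far from the array as a whole. Their median log2 difference was 0.02 at 7 days and 0.14 at 14 days, where all measured genes had 0.00 and 0.01. Both comparisons use the same control array.

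Among the differences from control, those of Adamts5, Adamts15, Plaur and Timp1 at 7 days were larger than 2 times the technical SD. At 14 days this held for Adamts5, Adamts15, Adamts8, Mmp23, Mmp2 and Adam22. The remaining differences from control lay within 2 technical SDs.

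**Figure D2:**
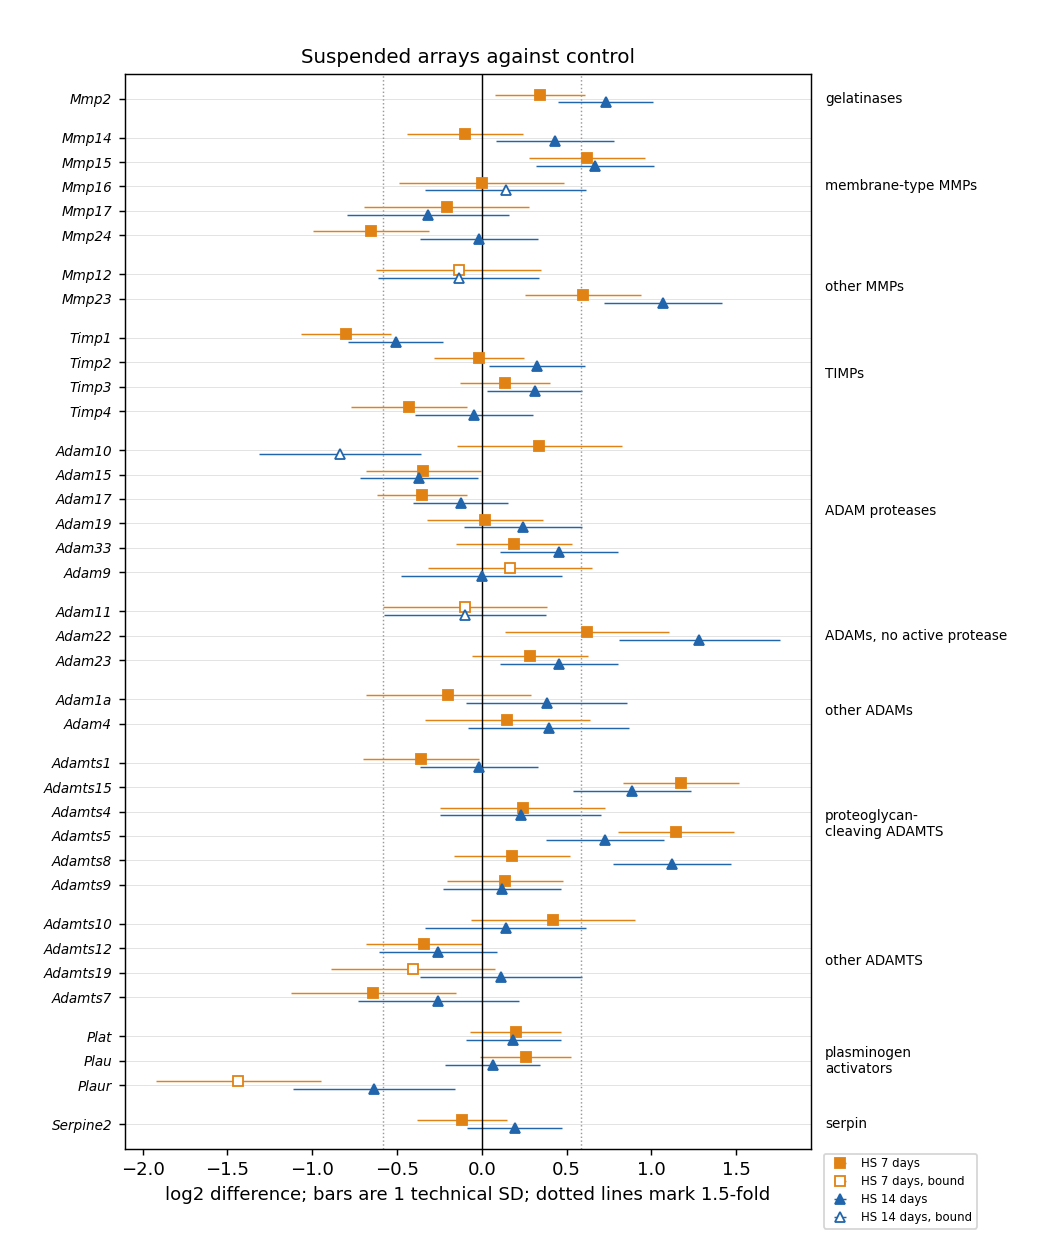
Log2 difference from control (horizontal axis) of the 37 measured genes for suspension of 7 days (squares) and 14 days (triangles). Bars are 1 technical SD, open symbols are bounds against the floor, and dotted lines mark 1.5-fold. Adamts5 and Adamts15 lie beyond the right dotted line at both times, and Plaur lies beyond the left one at both times.

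Of the ADAMTS enzymes listed here as cutting proteoglycans such as aggrecan and versican, Adamts20 had no named probe set. The others were all measured: Adamts1, Adamts4, Adamts5, Adamts8, Adamts9 and Adamts15. Of these 6, 5 lay above control on each suspended array, where 49.4% and 51.3% of all measured genes lay above it, and none was 1.5-fold below it. Both comparisons share the control array, and Adamts4 and Adamts9 at both times and Adamts8 at 7 days lay within the technical SD. Adamts15 had log2 signals of 7.85 in control, 9.02 at 7 days and 8.74 at 14 days. Control was the lowest array by 0.89 or more. At 7 days only 1.26% of measured genes of like signal (8 to 10) stood as far above control as Adamts15.

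Adamts5, a main aggrecanase that also clears versican in developing muscle, had log2 signals of 8.40, 9.54 and 9.12 in the same order. Its second probe set, at 8.11, 8.19 and 8.89, gave a difference of 0.08 at 7 days and 0.78 at 14 days. The 7-day difference of Adamts5 is therefore seen in 1 of its 2 probe sets and the 14-day difference in both.

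Adamts8 followed another course. Its log2 signals were 8.33 in control, 8.52 at 7 days and 9.45 at 14 days. Control and 7-day arrays lay within the technical SD of 0.34, and the 14-day array was 2.17-fold above control and 1.92-fold above 7 days. In RefSeq, Adamts8 is the neighbour of Adamts15 with no protein-coding gene between them.

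Adamts1 is likewise the neighbour of Adamts5, and its log2 signals were 9.75, 9.39 and 9.74. It was lowest at 7 days, by a difference of -0.36, and level with control at 14 days. Adamts4 had 7.60, 7.84 and 7.82, and Adamts9 had 8.38, 8.51 and 8.50. Both differed from control by less than the technical SD.

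The other ADAMTS genes that were measured are Adamts7, Adamts10, Adamts12 and Adamts19. Adamts7, which cuts the cartilage protein COMP, had log2 signals of 8.08 in control, 7.44 at 7 days and 7.83 at 14 days. It was 1.56-fold lower at 7 days, which is within 2 technical SDs and came to -0.57, short of 1.5-fold, with arrays centred on their medians. Adamts12, a relative that also cuts COMP, had 9.29, 8.95 and 9.03. The gene Comp itself had 8.28, 8.10 and 9.66, so that it was 2.60-fold above control at 14 days. Adamts10 had 7.39, 7.80 and 7.53. Adamts19 had 6.42, 4.48 and 6.53, with the 7-day array under the floor. Adamts6 and Adamts16 stayed under the floor throughout.

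Among the metalloproteinases, Mmp2, the gelatinase that cuts denatured collagen and basement membrane, had log2 signals of 10.79 in control, 11.13 at 7 days and 11.52 at 14 days. Control was lowest and the 14-day array highest, 1.66-fold above control. A further Mmp2 probe set stayed under the floor, between 5.22 and 5.57. Mmp9, the other gelatinase, lay under the floor with 5.15, 1.49 and 0.93.

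Mmp14, the membrane-type enzyme that activates pro-Mmp2 together with Timp2, had log2 signals of 9.79, 9.69 and 10.23. It was near control at 7 days and 1.35-fold above it at 14 days. A second Mmp14 probe set gave differences of -0.27 and 0.43. The brightest Timp2 probe set had 12.22, 12.20 and 12.54, a log2 difference of 0.33 at 14 days. The second Timp2 probe set, near the floor at 6.00, 6.16 and 5.11, gave 0.00. The mean of both, taken before signals were raised to the floor, turned the 14-day difference to -0.28. The 14-day differences of the brightest Mmp14 and Timp2 probe sets lie within 2 technical SDs.

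Mmp15, another membrane-type enzyme, had log2 signals of 8.46, 9.08 and 9.13. Both suspended arrays were above control, by 1.54-fold and 1.59-fold, within 2 technical SDs, and the 7-day difference was 0.57 with quantile normalization, short of 1.5-fold. Mmp24, a membrane-type enzyme best known from the nervous system, had 9.96, 9.30 and 9.94. It was low on the 7-day array, 1.57-fold below control, and its further probe sets gave -0.41 and -0.06 there. The difference fell short of 1.5-fold with arrays centred on their medians (-0.58) and with the mean of its probe sets (-0.38), which also gave -0.33 at 14 days. Mmp17 had 7.62, 7.41 and 7.30, and Mmp16 reached the floor at 14 days only, with 6.15.

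Mmp23, a small membrane-anchored member without the usual carboxy-terminal domain, had log2 signals of 8.20 in control, 8.80 at 7 days and 9.27 at 14 days. It stood 1.51-fold and 2.10-fold above control. Its second probe set agreed in sign, with 0.45 and 0.96. The third and dimmest gave -0.54 as a bound at 7 days and 0.10 at 14 days. The 7-day difference was short of 1.5-fold with the mean of the probe sets (0.16).

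The secreted collagenases and stromelysins with a named probe set gave no measurable signal. The collagenase genes Mmp1 and Mmp1b had no named probe set, so nothing is known of them here. Mmp8 and Mmp13 (collagenases) and Mmp3, Mmp10 and Mmp11 (stromelysins) lay under the floor throughout, at 5.64 or less. Mmp7, Mmp19 and Mmp28 were also under it, and Mmp12, the macrophage elastase, reached it in control only, with 6.15, 4.33 and 4.78. Mmp13, Mmp12, Mmp3, Mmp10, Mmp8 and Mmp7 lie in 1 run of MMP genes in RefSeq, interrupted by no protein-coding gene of another family. Of these 6 genes only Mmp12 reached the floor. Of the highest signals per gene, those nearest the floor were 6.11 in control for Adam11 and 6.15 for Mmp12 just above it, and 5.85 at 14 days for Adamts16 and 5.83 at 7 days for Adam8 just below it.

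All 4 TIMPs were measured, and Timp1 alone was at least 1.5-fold from control. Its log2 signals were 10.74 in control, 9.94 at 7 days and 10.23 at 14 days. Both suspended arrays were below control, and 2.85% of measured genes of like signal stood as far below it at 7 days. Timp1 has a single probe set here.

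Timp3, the inhibitor that stays bound to the matrix and also acts on ADAM and ADAMTS enzymes, had 11.56, 11.70 and 11.88. Its further probe sets gave 0.10, 0.53 and 0.00 at 7 days and 0.31, 0.91 and 0.10 at 14 days, the last of each from a probe set that reached the floor at 14 days only. Timp4, abundant in heart and muscle, had 8.69, 8.25 and 8.64. It was low at 7 days, by a difference of -0.43 that lies within 2 technical SDs. From 7 to 14 days the brightest probe set of each of the 4 TIMPs lay higher, by 0.18 for Timp3 to 0.39 for Timp4, none of them 1.5-fold. For Timp2 the sign turned with the second probe set (-0.15) and with the mean of both (-0.35).

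In the plasminogen system the receptor stood apart from the activators. Plaur had log2 signals of 7.45 in control, 5.80 at 7 days and 6.81 at 14 days. Control was the highest array, and the 7-day array lay below the floor. With the floor at the 50th percentile the bound at 7 days was -0.70. Its further probe set was below the floor everywhere, with 5.25, 0.56 and 3.46. Plau, urokinase, had 11.01, 11.27 and 11.08, and Plat, tissue plasminogen activator, had 10.16, 10.35 and 10.34. Both differed from control by less than the technical SD. Serpine2, protease nexin 1, had 11.45, 11.33 and 11.64, also within the technical SD. Serpine3 was under the floor.

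Among the ADAM proteases of body tissues, Adam10 alone was 1.5-fold from control. Adam17, the TNF-alpha converting enzyme, had log2 signals of 10.33, 9.98 and 10.21, and Adam15 had 10.08, 9.74 and 9.71. Both were slightly below control on each suspended array. Adam19 had 8.90, 8.92 and 9.15, and Adam33 had 8.69, 8.88 and 9.15. A dimmer Adam19 probe set gave 1.15 at 7 days and 0.45 at 14 days.

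Adam10, the sheddase of Notch and cadherins, had log2 signals of 6.85, 7.19 and 5.95. The 14-day array lay just under the floor, at least 1.79-fold below control and at least 2.26-fold below the 7-day array. With the floor at the 50th percentile these bounds came to -0.10 and -0.44, both short of 1.5-fold. These are low signals, and its second probe set was under the floor everywhere. Adam9 reached the floor at 7 days only, with 6.18, and Adam8 was under it on every array.

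ADAMs without an active protease act in cell adhesion, mainly at synapses and axons. Adam22, a partner of Lgi proteins, had log2 signals of 6.04 in control, 6.66 at 7 days and 7.32 at 14 days. It was lowest in control and highest at 14 days, 2.43-fold above control. With the floor at the 50th percentile the 14-day difference was 0.58, short of 1.5-fold. The control lay just above the floor, and 2 further Adam22 probe sets were under it everywhere. Adam23 had 8.53, 8.82 and 8.99, but a dimmer probe set went the other way, with -1.08 at 7 days and -0.48 at 14 days. Adam11 reached the floor in control only, with 6.11. Adam1a had 6.85, 6.65 and 7.23, and Adam4 had 6.67, 6.82 and 7.07. Adam2, Adam3a, Adam6, Adam7, Adam18 and Adam32, listed here among ADAMs of the reproductive tract and other ADAMs, were under the floor throughout.

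**Figure D3:**
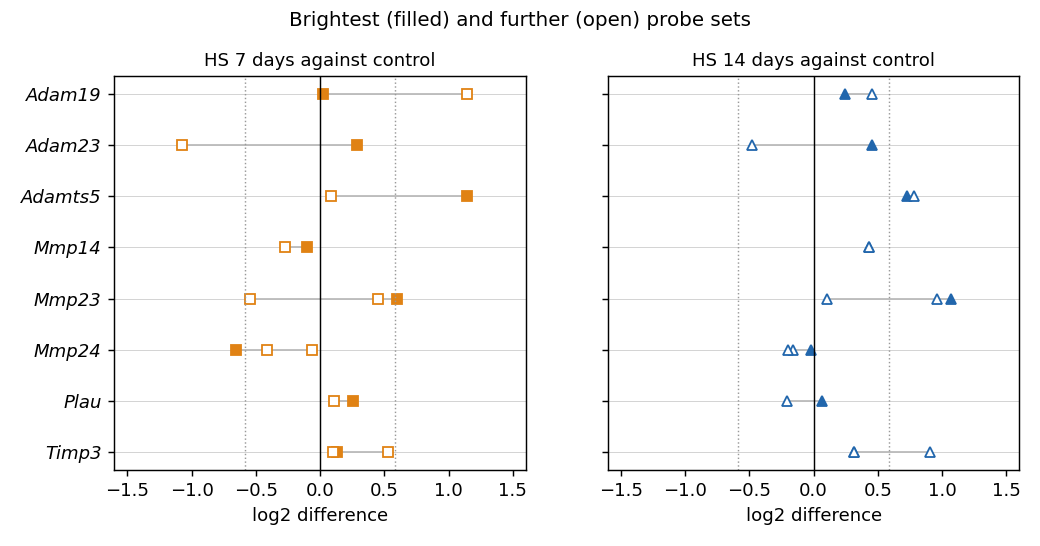
Log2 difference from control (horizontal axis) at 7 days (left) and 14 days (right) for the 8 genes with at least 2 probe sets that reached the floor on 2 or more arrays. Filled symbols are the brightest probe set, open symbols the further ones, and dotted lines mark 1.5-fold. The probe sets of Adamts5 are far apart at 7 days (1.15 and 0.08) and close at 14 days (0.73 and 0.78), while those of Adam23 have opposite signs.

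Between the suspended arrays, 4 of these 37 stood at least 1.5-fold higher at 14 than at 7 days, where 6.44% of measured genes were. They were Adamts8, Plaur (at least 1.74-fold), Adam22 (1.58-fold) and Mmp24 (1.56-fold). Adam10 alone was as far lower, where 4.28% of measured genes were. The differences of Adamts8, Plaur, Mmp24 and Adam10 exceeded 2 technical SDs. That of Mmp24 was short of 1.5-fold with arrays centred on their medians (0.58), with its second probe set (0.25) and with the mean of its probe sets (0.042), and its dimmest probe set gave -0.14. That of Plaur came to 0.069 with the floor at the 50th percentile. The median over the 37 genes was 0.23, where all measured genes had 0.00. Adamts5 and Adamts15 differed by -0.42 and -0.28, so their 14-day signals were the lower of the pair, and the second Adamts5 probe set gave 0.70.

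Other genes of matrix breakdown were taken from lists of convertases, inhibitors, receptors, inducers and substrates, of which 61 of 68 were found on the array and 52 measured. At 7 days 5 of the 52 were at least 1.5-fold above and 8 below control, and at 14 days 9 above and 4 below. The shares of all measured genes were 9.04% and 9.15% at 7 days and 11.7% and 9.25% at 14 days. The medians of the 52 were 0.00 and 0.21. Reck, a membrane-anchored inhibitor of MMPs, had log2 signals of 9.17 in control, 9.94 at 7 days and 10.16 at 14 days, which is 1.70-fold and 1.99-fold above control. Pcsk6, a proprotein convertase, had 8.56, 9.44 and 9.44, or 1.83-fold above control on both arrays.

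Serping1, an inhibitor of complement proteases, had log2 signals of 10.42, 11.02 and 11.20. Tspan15, a tetraspanin that escorts Adam10, had 6.69, 7.37 and 7.75, and was 2.09-fold above control at 14 days. Fap, a serine protease of activated fibroblasts, was 1.74-fold above control at 14 days, with 8.55, 8.83 and 9.36. Ctss, a lysosomal cysteine protease, had 9.90, 10.50 and 10.46.

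Among substrates, Col1a1, a chain of the main fibrillar collagen, had log2 signals of 13.88, 14.03 and 14.92. It was near control at 7 days and 2.06-fold above it at 14 days, beyond 2 technical SDs. Col4a2, a basement membrane collagen, had 10.19, 9.55 and 9.88, and was 1.55-fold below control at 7 days. Thbs2, a matrix protein that binds Mmp2 for uptake, had 7.71, 7.62 and 8.40, and the transcription factor gene Ets2 had 9.89, 10.29 and 10.52, which is 1.61-fold and 1.55-fold above control at 14 days. Tspan33, another tetraspanin, had 6.88, 6.28 and 7.11, lowest at 7 days.

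On the lower side, Hbegf, a growth factor that ADAM enzymes shed from the cell surface, had log2 signals of 9.11, 6.43 and 6.96. Adamtsl5, an ADAMTS-like protein without a protease domain, had 9.68, 8.63 and 9.20, or 2.07-fold below control at 7 days. The proteoglycan Acan, a substrate of the aggrecanases, had low signals of 6.76, 5.90 and 6.14. Another such substrate, Vcan, was less than 1.5-fold from control, with 9.76, 9.37 and 9.66. Serpinf2, the inhibitor of plasmin, reached the floor in control only, and was at least 1.69-fold lower on both suspended arrays. Tgfb1 had 6.73, 6.07 and 6.66.

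**Figure D4:**
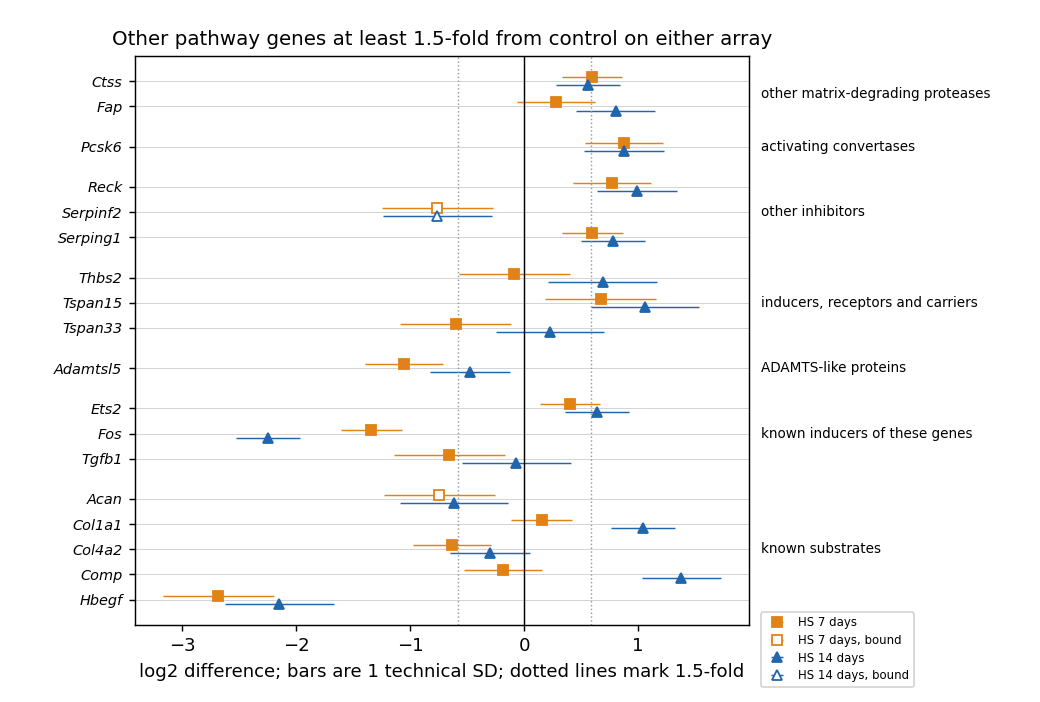
Log2 difference from control (horizontal axis) of the 18 other pathway genes at least 1.5-fold from control on either suspended array, ordered by list. Squares are 7 days, triangles 14 days, bars 1 technical SD and open symbols bounds. Reck and Pcsk6 lie to the right of the 1.5-fold line at both times, and Fos and Hbegf far to the left.

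Markers of the cells that could carry these transcripts also differed between the pools. In bulk RNA, fewer cells of a type and less RNA per cell cannot be told apart. The summed unlogged signal of 8 fibroblast markers, all measured, was 1.24 times that of control at 7 days and 1.56 times at 14 days. Pdgfra, which defines these cells, was 1.82-fold and 1.69-fold above control. Lum had log2 signals of 13.05, 13.08 and 12.92, the 1 marker of the 8 below control at 14 days. From 7 to 14 days 2 of the 8 were at least 1.5-fold higher. They were Col1a1 (1.86-fold), also given above as a substrate, and Col1a2 (1.58-fold). The sum of 10 macrophage markers, all measured, was 1.31 and 1.35 times that of control, with C1qc at 9.94, 10.86 and 10.57.

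The sum of the 4 tendon cell markers found, of 5, all measured, was 0.579 times that of control at 7 days and 1.33 times at 14 days. The tendon gene Scx had log2 signals of 10.68, 9.53 and 9.95, and Tnmd had 12.57, 11.46 and 12.59. Fmod had 11.96, 11.61 and 12.97, and with Comp, given above, was higher than control at 14 days. All 4 had their lowest signal on the 7-day array. So did 15 of the 37 measured proteases and inhibitors, or 40.5%, against 29.9% of all measured genes, Timp1, Timp4, Mmp24, Adamts1 and Adamts7 among them. Both shares use signals as deposited, so that Mmp12 and Mmp16 are counted through values under the floor. Over the 6 endothelial markers found, of 7, the sums were 0.926 and 1.10 times that of control. The sum of the 4 adipocyte markers, 3 of them measured, was 1.72 and 1.42 times that of control, and that of the 7 mast cell markers, 6 of them measured, 1.52 and 1.05 times. Lep and Kit were the ones under the floor. The adipocyte gene Cidec went the other way, with 8.68, 8.68 and 8.22, level with control at 7 days and below it at 14 days. Of the 6 measured mast cell markers, 2 lay below control at both times. They were Tpsb2, with 8.61, 8.36 and 7.96, and Fcer1a, with 6.49, 6.14 and 5.47. For 5 smooth muscle and pericyte markers the sums were 0.973 and 1.20 times control, and for the 4 neutrophil markers found, 2 of them measured, 1.15 and 0.754 times. All sums use signals as deposited, not raised to the floor. S100a9, the only neutrophil marker at the floor or above on all 3 arrays, had 6.11, 7.06 and 6.96, above control at both times. S100a8 reached the floor in control only, with 6.41, 5.87 and 1.93. None of these markers was at 0 on any array. Fast fibre genes had a sum 2.07 and 2.96 times that of control, while that of 7 slow fibre genes was 0.974 and 0.821 times. Of the 6 fast fibre genes 4 were at least 1.5-fold above control at both times, and Tnni2 and Tnnt3 were not. Casq2 was the only slow fibre gene at least 1.5-fold below control, by 2.03-fold and 3.87-fold. The 2 Schwann cell markers found, Mbp and S100b, summed to 1.42 and 1.88 times control, beside Adam22. The part of any of these cells in the differences of the proteases and inhibitors was not tested.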

How the data were processed

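Total RNA was extracted with Trizol, purified on RNeasy columns and made into biotin-labelled cRNA, per the labels' protocols. The authors deposited log2 signals per probe set for 3 arrays. Each array had a like mean unlogged signal (500.2 with 2% trimmed from both tails), read from the values. The software is not given in the sources used here. One source entry of the 14-day sample names 7 days, and its title and time entry, which name 14, were followed.

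Of 31099 probe sets, 57 controls were left out, and 20826 had 1 gene, 436 several and 9780 none in the platform annotation; only the first were used. The brightest probe set on average stood for a gene. Signals under the 40th percentile were raised to it, and a gene was measured when 1 array reached it (11229 genes). The technical SD came from the 2 brightest probe sets of a gene, both reaching the floor on all arrays. No test was made, as each group has 1 array. The functions were tested on simulated data (Python 3.11.15, numpy 2.4.6, pandas 2.3.3).

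The genes, roles, lists and motifs were chosen with earlier results of these data known. Genes named with values were proteases and inhibitors at least 1.5-fold apart in any comparison, pathway genes that far from control, and a fixed set of MMPs, TIMPs and plasminogen system genes, with further values for the rest of each family. Jun, Vcan, the dimmer probe sets and the single markers were named after their values were seen. Protein sequence features were not analysed here.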

Additional observations from a re-analysis of the deposited data

Results flagged for a closer look

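For 6 genes the differences from control had opposite signs at 7 and 14 days, which was not tested, since each group is 1 array. They were Adam10 (0.34 and then -0.84 as a bound), Adam1a (-0.20 and 0.38), Adamts19 (-0.40 as a bound and 0.11), Mmp14 (-0.10 and 0.43), Serpine2 (-0.12 and 0.20) and Timp2 (-0.018 and 0.33). All 12 values lay within 2 technical SDs.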

How the results depend on the processing

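As given above, 37 genes were measured, with counts at least 1.5-fold higher and lower of 5 and 4 at 7 days, 7 and 2 at 14 days, and 4 and 1 between the suspended arrays. No replicate could be left out, and no paired analysis was possible because each group is 1 array. With arrays centred on their medians, 2 were lower at 7 days and the median between the suspended arrays was 0.17. With quantile normalization 3 were higher at 7 days. With the mean of all probe sets of a gene, 3 were higher at 7 days, 0 lower at 14 days and 0 lower between the suspended arrays, and the 3 medians were -0.12 (a turned sign at 7 days), 0.023 and 0.14. That mean was taken before signals were raised to the floor. Values of probe sets under the floor, as for Mmp2, Plaur and Timp2, therefore enter it. With the second brightest probe set only 10 genes were measured, and the counts fell to 1 and 1 at 7 days and 2 and 0 at 14 days. With the floor at the 30th percentile, 7, 4 and 2 were lower in the 3 comparisons. With the floor at the 50th percentile, 1 was lower at 14 days, and 2 were higher and 0 lower between the suspended arrays. With no floor and no filter all 56 genes enter, noise near 0 included, with 9 higher and 14 lower at 7 days, 16 and 11 at 14 days, 12 and 6 between the suspended arrays, and a 7-day median of -0.0076. At a fold of 2, 2 were higher and 1 lower at 7 days, 3 and 0 at 14 days, and 0 higher between the suspended arrays. With both arrays of a comparison at the floor or above, the 7-day median was 0.14, 1 was lower at 14 days and 0 between the suspended arrays. Beyond the change in genes entered or fold, the cause was not tested. Of the named genes, Adamts15, Adamts8 (14 days), Timp1 (7 days) and Mmp23 (14 days) stayed at least 1.5-fold apart under every alternative run on them. Adamts15, Adamts8 and Timp1 have a single probe set each and signals above every floor tried. Only median centring and quantile normalization could therefore change their values. Adamts5 stayed 1.5-fold apart at 14 days under every alternative, but at 7 days not with its second probe set. Mmp2 fell short with the mean of its probe sets (0.23), and so did Plaur (-0.34 at both times, as bounds). No called gene changed sign, though Adam22 at 7 days came to 0 with the floor at the 50th percentile and Plaur between the suspended arrays with the mean of its probe sets. Signals near the floor, as for Adam10, Adam22 and Plaur, limit their differences most.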
